A study of Mus musculus with 24 samples.

Results

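The genes described here are the cytochrome P450 genes of families 1 to 4: all protein-coding mouse genes whose symbol is Cyp, a family number from 1 to 4, a subfamily letter and a gene number. There were 80 such genes among 49315 genes in the deposited tables, of which 21734 are protein-coding. P450 enzymes are haem-containing monooxygenases of the endoplasmic reticulum that take electrons from P450 oxidoreductase and insert oxygen into their substrates. Families 1 to 3 oxidise drugs, pollutants, steroids and other small molecules, and family 4 mainly oxidises fatty acids and related lipids. In liver most of these enzymes are made by hepatocytes, and in mice several are made at different levels in males and females under the control of the growth hormone secretion pattern.

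The libraries were made from poly(A) RNA of intrahepatic cholangiocytes. These cells line the bile ducts inside the liver, and they were labelled by an antibody and then separated with magnetic beads. The 24 libraries form 8 groups of 3, 4 groups in each sex: untreated wild-type (WT), WT given secretin, untreated dnTGFB and dnTGFB given secretin. The dnTGFB mice carry a dominant-negative form of the transforming growth factor beta receptor II and were used to model primary biliary cholangitis, and WT was the control. The sources used here do not name the promoter that drives the transgene. Secretin, a gut hormone whose receptor is found on cholangiocytes, was delivered at 4 µg per kg body weight per day by intraperitoneal osmotic minipumps from 32 weeks of age, with a second pump after 1 month, for 8 weeks in all. WT mice were killed at 32 weeks and secretin-treated mice at 40 weeks, so the effect of secretin and that of age cannot be told apart in the comparisons with WT. No source used here states how old the untreated dnTGFB mice were. Age may therefore also differ in the comparisons with them and in the interaction of secretin with genotype.

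Each group was 1 pool of cells from 6 to 8 mice whose RNA was sequenced as 3 libraries, so all p-values refer to how libraries of 1 pool vary, and the variation between mice was not measured. Groups are those of the titles and the design text. The genotype label goes against the title in 12 of 24 libraries: WT secretin libraries carry the transgene label and untreated dnTGFB libraries the wild-type label.

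Several libraries stood apart from their group. Male libraries held between 15225605 and 30203330 counts, except male dnTGFB 3 with 1429218, and female libraries held between 6483182 and 104003184. On a chi-square per gene between libraries, the nearest library was of the same group for 10 of 12 male but only 6 of 12 female libraries, the exceptions in males being male WT 1 and male dnTGFB 3. Female WT 2 was nearest to female dnTGFB secretin 1 (1.15, against 10.6 to its own group), and female WT secretin 1 was nearest to female dnTGFB secretin 3 (1.42, against 62.6). Summed heart-muscle markers reached between 50422 and 58275 CPM, a count scaled to the library's total, in female WT secretin 2 and 3 and female dnTGFB 1 and 2 and 15163 in male dnTGFB 3, against at most 2551 in the other 19 libraries. Those 4 libraries labelled female also held the Y-linked Ddx3y at 46.8 to 64.3 CPM, where the other female libraries held at most 6.02 and the male libraries at least 64.7. The 3 male WT secretin libraries held Xist, the RNA of the inactive X chromosome, at 34.0 to 42.4 CPM, against at most 5.74 in the other male libraries. The cholangiocyte markers Krt19 and Epcam were present in all libraries, at 11.0 to 460 CPM and 4.49 to 380 CPM, lowest in female WT secretin 2. Results are therefore given with and without the libraries that stand apart: male WT 1 and male dnTGFB 3 and, in fits of both sexes, also female WT 2, female WT secretin 1, female dnTGFB 3 and female dnTGFB secretin 1. Fits without the heart-muscle-rich female WT secretin 2 and 3 and female dnTGFB 1 and 2 were also run. They keep only 1 library in female WT secretin and in female dnTGFB, so their calls cannot decide whether a difference stays. In fits of both sexes they also leave out male WT 1 and male dnTGFB 3.

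Many of the genes lie in clusters of close relatives on mouse build GRCm38. The 15 Cyp2c genes lie between 39007019 and 44029208 on chromosome 19, and the Cyp3a genes number 9 on chromosome 5. The 8 Cyp4a genes lie on chromosome 4 (115242084 to 115621602). Cyp4b1 lies beside these (115624725 to 115647723, minus strand). The 8 Cyp2d genes lie on chromosome 15 (82370528 to 82794245). Chromosome 7 carries the Cyp2a, Cyp2b, Cyp2e, Cyp2f, Cyp2g, Cyp2r, Cyp2s and Cyp2t genes. Over 278 pairs of genes within a subfamily, 17 pairs of coding sequences, with 22 genes, were at least 95% identical. The closest were Cyp3a41a and Cyp3a41b (99.9%), Cyp4a12a and Cyp4a12b (98.5%), Cyp2c40 and Cyp2c69 (97.9%), Cyp3a25 and Cyp3a59 (97.5%), and Cyp4a10 and Cyp4a32 (97.2%). Counts of such genes are uncertain as a split between copies, since the sources used here do not say how reads that match several copies were assigned.

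Promoters were available from RefSeq (GRCm38.p6) for 65 of the 80 genes, and 6 are printed for the genes on which the results turn. Each runs over the 250 bases before the transcription start, 5′ to 3′ on the strand of the gene. Capitals mark matches to TATAAA, the core of a TATA box, and to GCGTG, the core of the element bound by the aryl hydrocarbon receptor, on either strand. The regions are chr9:57697363-57697612 (plus strand) for Cyp1a1, chr4:115647722-115647971 (minus) for Cyp4b1, chr15:82452127-82452376 (plus) for Cyp2d9, chr7:26306942-26307191 (plus) for Cyp2a4, chr7:26835089-26835338 (plus) for Cyp2a5 and chr19:39886770-39887019 (minus) for Cyp2c69. The first lies inside the longer Ensembl gene model of Cyp1a1 used for counting (57687928 to 57703824).
Cyp1a1: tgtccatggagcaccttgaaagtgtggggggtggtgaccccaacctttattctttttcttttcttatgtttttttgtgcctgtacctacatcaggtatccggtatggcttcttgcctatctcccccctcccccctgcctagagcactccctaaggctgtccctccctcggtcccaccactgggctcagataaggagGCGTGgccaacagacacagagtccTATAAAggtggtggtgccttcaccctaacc
Cyp4b1: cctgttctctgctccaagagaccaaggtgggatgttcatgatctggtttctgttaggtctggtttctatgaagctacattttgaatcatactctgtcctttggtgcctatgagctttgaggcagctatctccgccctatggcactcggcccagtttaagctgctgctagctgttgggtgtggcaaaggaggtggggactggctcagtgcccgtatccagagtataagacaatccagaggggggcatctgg
Cyp2d9: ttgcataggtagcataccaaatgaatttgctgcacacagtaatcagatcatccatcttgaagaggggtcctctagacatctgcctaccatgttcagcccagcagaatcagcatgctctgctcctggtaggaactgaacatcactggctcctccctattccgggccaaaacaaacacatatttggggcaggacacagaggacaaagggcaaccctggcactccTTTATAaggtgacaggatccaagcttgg
Cyp2a4: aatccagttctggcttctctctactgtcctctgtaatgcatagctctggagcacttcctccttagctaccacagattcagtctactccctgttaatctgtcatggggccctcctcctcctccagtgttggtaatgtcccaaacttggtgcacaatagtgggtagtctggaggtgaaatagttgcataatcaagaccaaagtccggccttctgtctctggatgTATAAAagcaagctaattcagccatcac
Cyp2a5: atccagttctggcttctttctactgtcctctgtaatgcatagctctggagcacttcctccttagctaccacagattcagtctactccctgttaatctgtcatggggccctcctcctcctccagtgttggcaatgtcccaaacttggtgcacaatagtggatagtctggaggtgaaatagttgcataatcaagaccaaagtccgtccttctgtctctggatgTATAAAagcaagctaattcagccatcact
Cyp2c69: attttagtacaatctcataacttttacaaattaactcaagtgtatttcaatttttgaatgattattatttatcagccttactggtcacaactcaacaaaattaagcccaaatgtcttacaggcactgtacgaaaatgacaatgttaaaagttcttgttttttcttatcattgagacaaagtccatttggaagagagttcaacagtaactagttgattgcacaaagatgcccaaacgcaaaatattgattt

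Cyp1a1, whose product activates polycyclic hydrocarbons and whose gene is the classical target of the aryl hydrocarbon receptor, had TATAAA at position -30 and GCGTG at -54 from its start. Cyp2d9 had the box on the opposite strand, read as TTTATA, at -28. The promoters of Cyp2a4 and Cyp2a5, which encode steroid and coumarin hydroxylases, aligned with 245 identical and 4 mismatched bases. Their TATAAA lay at -28 and -29. Neither Cyp4b1 nor Cyp2c69 had a match to these letters in the window. Over the 65 genes, 26 (40%) held TATAAA against 12.4% of 32851 promoters of the same length, 25 held CCAAT (38.5% against 33.8%) and 12 held GCGTG (18.5% against 28.2%). GCGTG and CCAAT are short, and these matches describe letters only.

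Levels differed widely between the genes. Per kilobase of transcript, the mean over the 24 libraries was highest for Cyp4b1, a family 4 enzyme of several epithelia that oxidises fatty acids and aromatic amines, at 89.1 CPM per kilobase. Cyp2e1, the ethanol-inducible enzyme of pericentral hepatocytes, followed at 81.2. The next 8 were Cyp2d22 (31.5), Cyp2d26 (24.7), Cyp2f2 (24), Cyp2d10 (18.3), Cyp2c70 (14.0), Cyp2d9 (12.4), Cyp2j5 (11.2) and Cyp3a25 (11.2). Cyp4b1 took 17.6% of all counts on the 80 genes and Cyp2e1 13.0%. Mean CPM was at least 100 for 2 genes, at least 10 for 31 and at least 1 for 58, and was below 1 for 22.

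The 80 genes summed to between 162 and 1834 CPM of all counts in a library. In males the sum was narrow, from 1196 to 1834 in 11 libraries, with 856 in male dnTGFB 3. In females it was 1202 to 1785 in 8 libraries and 162, 269, 401 and 424 in female WT secretin 2 and 3 and female dnTGFB 1 and 2. The low 4 are the heart-muscle-rich libraries.

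**Figure D1:**
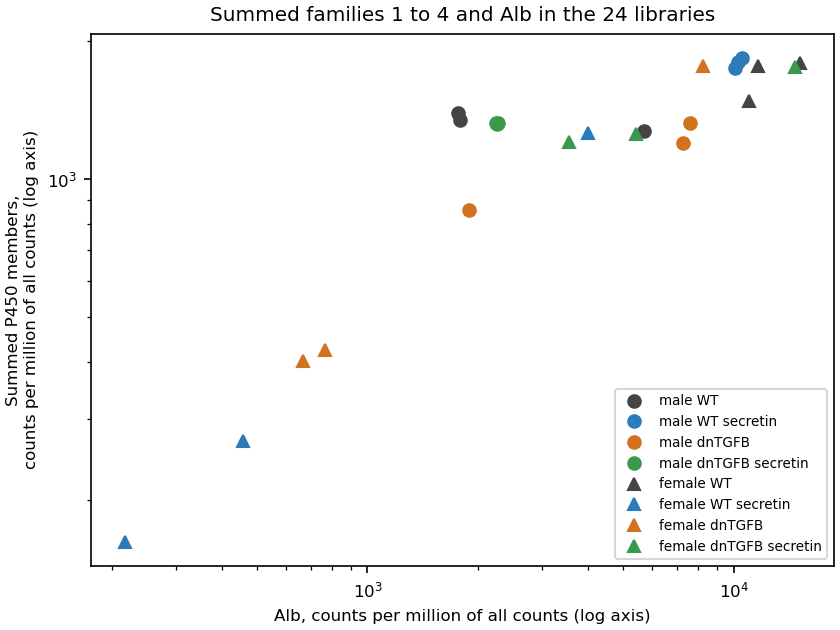
Summed counts of the 80 P450 genes (vertical, CPM of all counts, log axis) against Alb (horizontal, log axis) in each of the 24 libraries; circles are male, triangles female, and colours are the 4 groups. The sum stays between 856 and 1834 in 20 libraries while Alb runs from 1764 to 15174, and the 4 heart-muscle-rich female libraries lie apart at the lower left.

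Alb, which encodes serum albumin and is made by hepatocytes, varied more than the P450 sum. In females the libraries low in Alb were also those low in the sum: Alb was 218 to 766 CPM in the 4 heart-muscle-rich libraries and 3544 to 15174 in the other 8. In males Alb stood at 5676, 1789 and 1764 CPM in WT, at 10106, 10264 and 10562 in WT secretin, at 7586, 7275 and 1899 in dnTGFB and at 2260, 2249 and 2279 in dnTGFB secretin. Per 100 Alb counts the male WT libraries held 22.4, 75.0 and 78.9 P450 counts and those given secretin 17.3, 17.5 and 17.4. The untreated dnTGFB libraries held 17.5, 16.4 and 45.1 and the treated ones 58.2, 58.9 and 58.0. Libraries low in Alb thus held more P450 counts per Alb count, as the plot of the sum against Alb shows. Among genes with a mean of at least 1 CPM, the ratio of the highest to the lowest of the 4 group means was smaller relative to Alb than in CPM for 16 of 50 genes in males and 36 of 57 in females. In bulk samples, fewer cells of a type and less RNA per cell cannot be told apart, and this holds for every level below.

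The comparison of male dnTGFB with male WT asks how the transgene changes these genes in untreated males. Cyp1a1, Cyp2s1, Cyp4f18 and Cyp2j6 were lower in dnTGFB, and Cyp2c67 and Cyp2c37 were higher. These are 6 of 57 genes tested, where 17% of all genes were called at an adjusted p under 0.05, 8.55% higher and 8.46% lower. The other 23 genes fell under the low-count filter, none above 1.15 CPM in any male library. The median log2 difference of the 57 genes was 0.73, against 0.01 over all genes tested.

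Cyp1a1 stood at 17.0, 22.1 and 28.3 CPM in male WT and at 8.88, 6.76 and 4.69 in male dnTGFB. All 3 dnTGFB libraries lay below all WT libraries, a log2 difference of -1.65 ± 0.24 (SE) with an adjusted p of 0.00385 by edgeR's quasi-likelihood test. Cyp2s1, an extrahepatic enzyme of epithelia that metabolises retinoids, stood at 18.5, 21.8 and 22.4 CPM in WT and at 10.7, 10.4 and 5.87 in dnTGFB. It was lower without overlap (log2 -1.14 ± 0.19, edgeR adjusted p 0.00474). Cyp4f18, which oxidises leukotriene B4 and is known from neutrophils, stood at 7.22, 9.57 and 12.6 CPM against 3.92, 4.54 and 1.76 (log2 -1.38 ± 0.28, edgeR adjusted p 0.00891). Macrophage markers summed to 253 to 573 CPM in WT and 115 to 129 in dnTGFB. Neutrophil markers summed to 148, 13.75 and 13.4 CPM in WT and to 199, 183 and 17.5 in dnTGFB. The part of these cells in Cyp4f18 was not tested. Cyp2j6 fell from 32.4 to 37.5 CPM to 16.4 to 24.8 (log2 -0.66 ± 0.15, edgeR adjusted p 0.0123).

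Cyp2c67, of the arachidonic acid and drug metabolising 2C subfamily, stood at 5.58, 4.47 and 5.11 CPM in WT and at 11.0, 7.77 and 8.80 in dnTGFB (log2 0.87 ± 0.20, edgeR adjusted p 0.0158). Cyp2c37 rose by 1.55 ± 0.38 on the log2 scale, but its libraries overlapped at 8.39 CPM in WT 1 and 7.04 in dnTGFB 3. Relative to Alb, neither Cyp2c67 (log2 -0.15 ± 0.91) nor Cyp2c37 (0.05 ± 0.77) was called. Of the 4 decreases, Cyp1a1 and Cyp4f18 were also called lower on that scale, while Cyp2s1 (-2.71 ± 0.91) and Cyp2j6 (-1.84 ± 0.86) were not called. The 4 decreases passed the threshold in all 6 fits that left out 1 library, while Cyp2c67 passed in 4 and Cyp2c37 in 3. Cyp4b1 was lower in all 3 dnTGFB libraries (207, 218 and 49.3 CPM against 308, 390 and 427) but missed the threshold (log2 -1.23 ± 0.41, edgeR adjusted p 0.0614).

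Cyp2e1, Cyp3a11 and Cyp2c70 overlapped between the groups. Cyp2e1 stood at 246, 141 and 132 CPM in WT and at 398, 317 and 127 in dnTGFB. Cyp3a11, the main drug-oxidising enzyme of the 3A subfamily, stood at 133, 44.7 and 43.1 against 198, 181 and 62.8. Cyp2c70, which makes muricholic acids in mice, stood at 58.2, 8.72 and 10.7 against 103, 92.1 and 13.5. Male WT 1 was the high WT library and male dnTGFB 3 the low dnTGFB library for each. The same libraries held 16112 and 5761 CPM of 25 summed hepatocyte markers, against 5082 and 4974 in the other WT and 21649 and 20727 in the other dnTGFB libraries.

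Without male WT 1 and male dnTGFB 3, 41 of 58 genes were called, 31 higher and 10 lower, including all 6 above, where 47.4% of all genes were. In that fit 25 of 25 hepatocyte markers were higher (median log2 2.87) and 7 of 9 cholangiocyte markers lower (median -1.34), and their part in the P450 differences was not tested. Leaving out male WT 1, male dnTGFB 3 or male dnTGFB 2 alone gave 28, 26 and 11 calls. For fits that left out 1 library, here and below, the share of all genes called is not given. Their counts of calls therefore cannot be set against that share. With library totals in place of scaling by the trimmed mean of M values (TMM), 1 gene was higher and 10 lower, where 27.8% of all genes were called. The share of higher calls over all genes went from 50.3% to 19.3%.

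The comparison of male WT secretin with male WT asks what secretin changes in mice without the transgene. Cyp2c69, Cyp2a4, Cyp2c67, Cyp4f17, Cyp1a1 and Cyp2d9 were higher and none of the genes was lower. These are 6 of 57 genes, where 6.22% of all genes were called, 3.55% higher and 2.67% lower. The median log2 difference was 0.32 against -0.00 over all genes. Groups did not overlap for 25 of the 57 genes, against 43.4% of all genes. Summed hepatocyte markers stood at 16112, 5082 and 4974 CPM in WT and at 22054, 22471 and 23085 in WT secretin, where 0 of the 25 were called (median log2 0.29), and without male WT 1 and male dnTGFB 3 22 were higher and 1 lower (median 1.17). Their part in the P450 calls was not tested.

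Cyp2c67 stood at 5.58, 4.47 and 5.11 CPM in WT and at 14.7, 14.8 and 13.1 in WT secretin, a log2 difference of 1.49 ± 0.20 with an edgeR adjusted p of 0.00205. Cyp2c69, a gene of female-biased expression in mouse liver, stood at 0.281, 0.340 and 0.0805 CPM against 3.25, 2.55 and 2.99 (log2 3.62 ± 0.52, edgeR adjusted p 0.00314). Both were called in all 6 fits that left out 1 library. Cyp2a4, another female-biased gene, stood at 1.59, 0.766 and 0.443 CPM against 3.84, 3.77 and 2.88 (log2 1.91 ± 0.47, edgeR adjusted p 0.0354). The male WT secretin libraries are those with Xist at 34.0 to 42.4 CPM, and the part of that in Cyp2c69 and Cyp2a4 was not tested.

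Cyp1a1 stood at 37.0, 40.9 and 46.8 CPM in WT secretin (log2 0.89 ± 0.21, edgeR adjusted p 0.034). Cyp2d9, a male-biased steroid hydroxylase of mouse liver, stood at 27.7, 32.8 and 31.0 CPM in WT and at 49.7, 55.4 and 61.7 in WT secretin (log2 0.87 ± 0.21, edgeR adjusted p 0.0328). Cyp4f17 rose by 1.29 ± 0.33 on the log2 scale. Cyp1a1, Cyp2a4 and Cyp4f17 were called in 1 of 6 fits that left out a library and Cyp2d9 in none. Leaving out any 1 library other than male WT 1 gave 2 or 3 calls. A replicate block kept 2 of the 6 and called 3, where 3.72% of all genes were called. Without the libraries that stand apart 36 genes were called (32 higher, 4 lower), where 40.5% of all genes were.

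Cyp1b1, an extrahepatic enzyme that metabolises oestrogens and retinoids, stood at 35.7, 9.53 and 9.90 CPM in male WT and at 62.9, 57 and 63.7 in WT secretin (log2 1.74 ± 0.60, edgeR adjusted p 0.119). Stellate cell and fibroblast markers, cells in which Cyp1b1 is commonly found, summed to 934 to 1105 CPM in male WT and to 3070 to 3112 in WT secretin, and their part was not tested.

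The comparison of male dnTGFB secretin with male dnTGFB asks what secretin changes in the disease model, and it held the most calls. Lower were some genes of the Cyp2c, Cyp2d, Cyp3a and Cyp4a subfamilies, Cyp2e1, Cyp2f2, Cyp2a12 and Cyp1a2. Cyp2s1, Cyp2c65, Cyp1a1, Cyp2j6, Cyp4f16, Cyp4f40 and Cyp4a12a rose. Of 57 genes 28 were called, 7 higher and 21 lower, where 22.6% of all genes were called, 10.1% higher and 12.4% lower. The median log2 difference was -1.06, against -0.05 over all genes.

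Among the increases, Cyp2s1 stood at 10.7, 10.4 and 5.87 CPM in dnTGFB and at 35.7, 35.8 and 38.2 in dnTGFB secretin (log2 1.95 ± 0.19, edgeR adjusted p 0.000148). Cyp2c65, a 2C enzyme known from the intestine, stood at 3.69, 2.22 and 2.35 CPM against 12.7, 10.9 and 12.1 (log2 2.07 ± 0.27, edgeR adjusted p 0.000904). Cyp1a1 stood at 8.88, 6.76 and 4.69 CPM against 17.3, 15.4 and 15.3 (log2 1.17 ± 0.23, edgeR adjusted p 0.00913). For all 3 genes the groups did not overlap, and each was called in all 6 fits that left out 1 library. Cyp2j6 rose by 0.86 ± 0.15 and Cyp4f16 by 1.00 ± 0.32 on the log2 scale. Cyp4a12a, a fatty acid hydroxylase that is male-biased in mouse liver, rose from 3.69, 1.94 and 8.80 CPM to 15.8, 14.9 and 13.5 (log2 1.88 ± 0.43, edgeR adjusted p 0.0154). Its near-identical neighbour Cyp4a12b fell from 1.15, 0.926 and 0.587 CPM to 0.133, 0.217 and 0.158 (log2 -2.47 ± 0.45, edgeR adjusted p 0.00544), and with 98.5% coding identity the split of reads between them is uncertain. Cyp4f40 held 1, 0 and 1 counts in dnTGFB and 45, 55 and 53 in dnTGFB secretin, so its fitted log2 difference of 3.98 depends on the prior count.

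Among the decreases, Cyp2d9 stood at 44.2, 23.0 and 39.9 CPM in dnTGFB and at 6.76, 6.76 and 7.01 in dnTGFB secretin (log2 -2.37 ± 0.22, edgeR adjusted p 0.000136). Cyp2c67 stood at 11.0, 7.77 and 8.80 CPM against 2.88, 3.32 and 2.59 (log2 -1.65 ± 0.21, edgeR adjusted p 0.000737). Both were lower in every secretin library and were called in all 6 fits that left out 1 library. Cyp2e1 stood at 398, 317 and 127 CPM against 99.6, 96.0 and 94.9 (log2 -1.54 ± 0.36, edgeR adjusted p 0.0175). Cyp3a11 stood at 198, 181 and 62.8 CPM against 35.1, 36.1 and 35.6 (log2 -2.06 ± 0.47, edgeR adjusted p 0.0159). For these 2 genes male dnTGFB 3 was the low dnTGFB library, without overlap, and the call held in 3 of 6 fits that left out 1 library.

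Cyp2f2, a naphthalene-activating enzyme of periportal hepatocytes and of club cells in the airways, stood at 156, 149 and 33.4 CPM against 19.3, 18.7 and 17.4 (log2 -2.63 ± 0.55, edgeR adjusted p 0.0112). Cyp3a25 fell by 3.07 ± 0.85 on the log2 scale, Cyp2c50 by 2.50 ± 0.42 and Cyp2a12 by 2.39 ± 0.61. Cyp1a2, a hepatocyte enzyme that oxidises caffeine, fell by 1.83 ± 0.35 and Cyp2c29 by 1.84 ± 0.33. Thus Cyp1a1 and Cyp1a2, neighbours on chromosome 9 and both known targets of the aryl hydrocarbon receptor, were called in opposite directions. The lipid-oxidising Cyp4a10 and Cyp4a14, known targets of the fatty acid receptor PPARα, fell by 1.85 ± 0.35 and 1.37 ± 0.39. The other decreases were Cyp2c23, Cyp2c37, Cyp2c54, Cyp2d10, Cyp2d26, Cyp2d40, Cyp3a59, Cyp4a31 and Cyp4a12b, between -3.34 and -1.69.

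Some abundant genes were not called. Cyp4b1 stood at 207, 218 and 49.3 CPM against 234, 244 and 233 (log2 0.57, edgeR adjusted p 0.324). Cyp2d22 stood at 101, 86.2 and 28.2 against 110, 113 and 112 (log2 0.61, edgeR adjusted p 0.193). Cyp2c70 (log2 -1.71, edgeR adjusted p 0.111) and the less abundant Cyp2r1 (log2 -1.18, edgeR adjusted p 0.179), the vitamin D 25-hydroxylase, overlapped between groups. Cyp3a13 stood at 39.8, 36 and 9.39 CPM against 38.1, 36 and 40.7, so that dnTGFB 1 and 2 lay within the range of the secretin libraries and dnTGFB 3 below it. Cyp4v3 stood at 44.3, 38.1 and 12.9 against 22.5, 21.4 and 19.8 and overlapped through dnTGFB 3 alone.

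**Figure D2:**
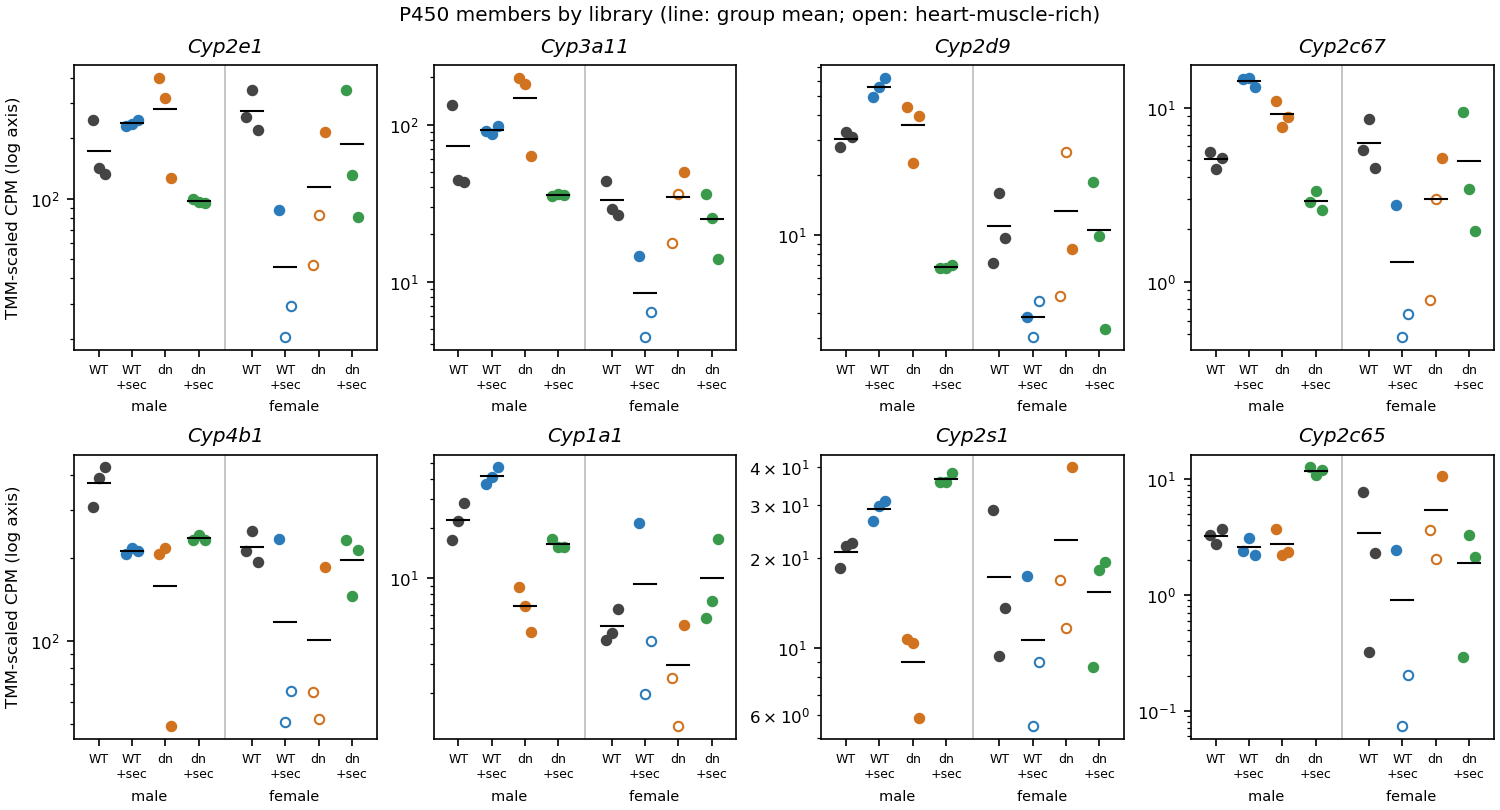
TMM-scaled CPM (log axis) of 8 P450 genes in each library, males left and females right, with the group mean as a line and heart-muscle-rich female libraries as open circles. In males Cyp2d9 and Cyp2c67 are lowest in dnTGFB secretin, Cyp2s1 and Cyp2c65 highest there, and Cyp2e1 and Cyp3a11 spread most in WT and dnTGFB.

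In this comparison 11 of 25 hepatocyte markers were lower (median log2 -2.04) and 9 of 9 cholangiocyte markers higher (median 2.46), and 8 of 8 macrophage markers were higher. The summed hepatocyte markers ran from 5761 to 21649 CPM in dnTGFB and from 7610 to 7674 in dnTGFB secretin, with Alb, their most abundant gene, at 1899 to 7586 and 2249 to 2279. The summed cholangiocyte markers ran from 472 to 679 and from 5670 to 5755 CPM. Mitochondrial counts took 55.1%, 55.0% and 11.4% of dnTGFB libraries and 5.31% to 5.66% of dnTGFB secretin libraries. The part of these in the P450 calls was not tested, apart from the scaling to Alb below. Without male WT 1 and male dnTGFB 3, 45 of 58 genes were called, 12 higher and 33 lower, and all 28 kept their direction, where 46.6% of all genes were called.

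With library totals in place of TMM scaling, 16 genes were higher and 14 lower, where 40.1% of all genes were called. The median of all genes moved to 0.75 and the share of higher calls over all genes from 44.8% to 88.9%. On that scale Cyp2d9, Cyp2e1, Cyp3a11 and Cyp2s1 kept their direction and call. Leaving out a dnTGFB secretin library gave 13 to 15 calls.

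Genes that work with or control the P450 enzymes were read in the same fit. Of 7 genes for electron transfer and haem, Fech (log2 -0.77 ± 0.16), the last enzyme of haem synthesis, and Alas1 (-0.82 ± 0.20), its rate-limiting enzyme, were lower. Por, the oxidoreductase, was not called, at 148, 133 and 41.7 CPM against 85.1, 89.1 and 83.6. Among transcription factors known to act on these genes, Dbp was higher (0.92 ± 0.25). Of 5 other targets of the aryl hydrocarbon receptor, only Aldh3a1 was called, lower (-3.83 ± 0.76). Among other targets of PPARα, Acaa1b and Ehhadh (-1.31 ± 0.33) were lower. Of 13 conjugation enzymes 6 were lower, among them the glucuronosyltransferase Ugt2b1 (-2.71 ± 0.27), and of 15 P450 genes tested from other families 4 were higher and 3 lower, the last including the bile acid 12α-hydroxylase Cyp8b1 (-2.55 ± 0.34). All calls are by edgeR.

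Relative to Alb the same comparison gave another picture. When the Alb count took the place of the library size, 12 genes were higher and none lower, where 18.1% of all genes were called, 18% higher and 0.16% lower. The median of the 57 genes was 1.34 and that of all genes 1.41. Cyp2s1 rose by 3.69 ± 0.95 on the log2 scale, Cyp2c65 by 3.89 ± 1.03, Cyp1a1 by 2.91 ± 0.96, Cyp1b1 by 2.69 ± 0.71, Cyp4b1 by 2.63 ± 0.75 and Cyp2d22 by 2.55 ± 0.78. Cyp2s1 stood at 0.805, 0.810 and 3.69 per 1000 Alb counts in dnTGFB and at 19.6, 19.8 and 21 in dnTGFB secretin. Cyp2e1 stood at 29.9, 24.8 and 80 per 1000 Alb counts against 54.8, 53.2 and 52.2, so that its groups overlapped. Each of the 12 calls was lost in 5 of 6 fits that left out 1 library, since 29 genes were called without male dnTGFB 3 and none without any other library. Of the 28 genes called on the CPM scale, 5 were also called relative to Alb.

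**Figure D3:**
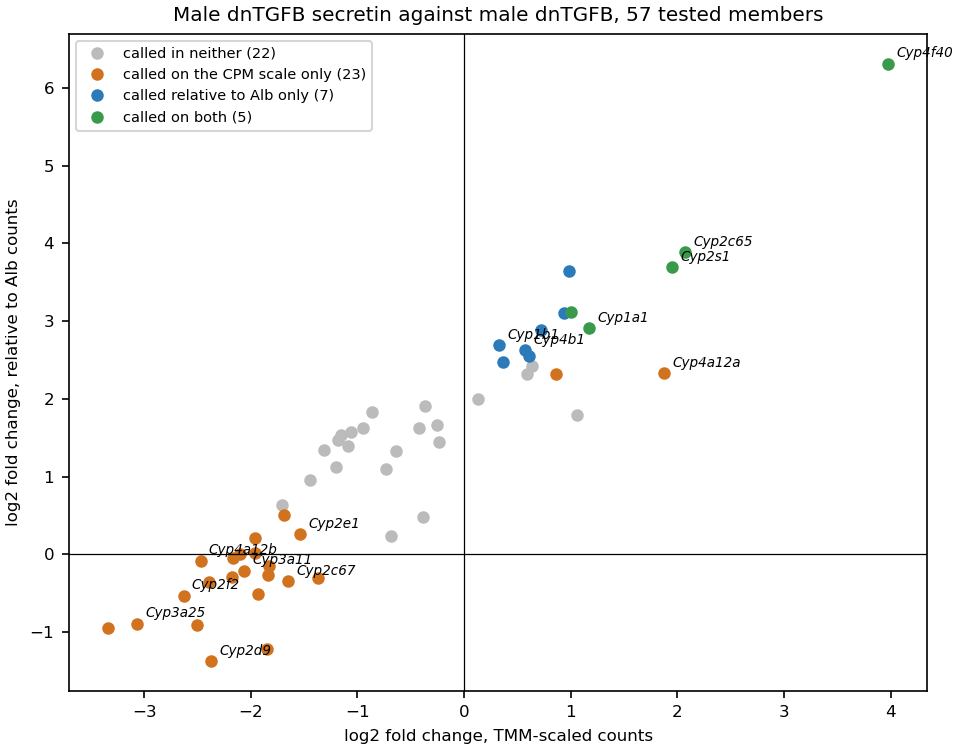
Log2 fold change of male dnTGFB secretin against male dnTGFB for the 57 tested genes, with TMM-scaled counts (horizontal) and relative to Alb counts (vertical). Of these, 23 were called on the CPM scale only, 7 relative to Alb only and 5 on both, and all 12 called relative to Alb lie above 0 on the vertical axis.

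In the other male comparisons, relative to Alb, 4 genes were lower in dnTGFB than in WT (9.63% of all genes called, 1.6% higher and 8.03% lower): Cyp4f18 (-3.44 ± 0.97), Cyp1a1 (-3.29 ± 0.97), Cyp4b1 (-3.15 ± 0.76) and Cyp4f13 (-2.65 ± 0.81). Lower in WT secretin than in WT were 5 (12.3% of all genes called, 0.0746% higher and 12.2% lower): Cyp2d11, Cyp4a32, Cyp4b1, Cyp2j9 and Cyp3a59. Cyp4b1 stood at 38.3, 249 and 274 per 1000 Alb counts in male WT, at 23.4, 24.1 and 22.7 in WT secretin, at 15.6, 17.1 and 31.0 in dnTGFB and at 128, 135 and 128 in dnTGFB secretin. The 2 WT libraries with little Alb were the high ones. Leaving out male WT 1 gave 18 and 33 calls in these comparisons. Without male WT 2 or male WT 3 none was called, and without male dnTGFB 3 there were 26 in the first. Without any 1 WT secretin library none was called in the second, and without male dnTGFB 1 or 2 there was 1 in the first. The median of all genes was -1.18 and -2.07 on this scale, and that of the P450 genes -0.62 and -1.62. No gene was called between male dnTGFB secretin and male WT relative to Alb, where 0.0959% of all genes were called. An unadjusted p under 0.05 was found for 5 P450 genes, where 5.34% of all genes had one.

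Male dnTGFB secretin was also set against male WT. Cyp2c65 (log2 1.86 ± 0.25, edgeR adjusted p 0.00161) and Cyp2s1 (0.81 ± 0.17, edgeR adjusted p 0.0243) were higher. Lower were Cyp2d9 (-2.16 ± 0.22, edgeR adjusted p 0.000294), Cyp4a12b (-2.85 ± 0.41), Cyp4a14 (-1.63 ± 0.37), Cyp4a10 (-1.35 ± 0.33) and Cyp2c67 (-0.78 ± 0.20). These 7 of 57 compare with 4.34% of all genes called, 1.88% higher and 2.46% lower, and the median was -0.34 against -0.01. Cyp2d9, at 27.7, 32.8 and 31.0 CPM in WT, was lower in each dnTGFB secretin library, and Cyp2c65 (3.28, 2.77 and 3.74 CPM in WT) was higher in each. Leaving out any 1 library left 3 or 4 calls, and Cyp2c65, Cyp2d9 and Cyp4a12b were called in all 6 such fits. Without male WT 1 and male dnTGFB 3, 34 were called, 19 higher and 15 lower, where 38.1% of all genes were.

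The male genotypes were compared by an interaction term, the change with secretin in dnTGFB minus that in WT, in which age may also differ. It was above 0 for 4 genes and below 0 for 15 of 57, where 15.6% of all genes were called, 8.1% above 0 and 7.51% below. In CPM, Cyp2d9 rose with secretin in WT and fell in dnTGFB, a difference of -3.23 ± 0.30 on the log2 scale (edgeR adjusted p 0.000265). Cyp2c67 did the same (-3.14 ± 0.29, edgeR adjusted p 0.000252), and Cyp2f2 differed by -3.06 ± 0.75. Relative to Alb, neither Cyp2d9 nor Cyp2c67 was called with secretin in WT or in dnTGFB. There Cyp2d9 changed by -1.27 ± 0.93 in WT and -1.37 ± 0.95 in dnTGFB, and Cyp2c67 by -0.54 ± 0.86 and -0.34 ± 0.91. Cyp2c65 (2.41 ± 0.37, edgeR adjusted p 0.00297), Cyp2s1 (1.47 ± 0.25, edgeR adjusted p 0.00508) and Cyp4f40 (4.04 ± 1.07) differed upward. Cyp2d9, Cyp2c67, Cyp2c65 and Cyp2s1 were called in all 12 fits that left out 1 library. The count fell to 10 or 11 without any 1 library of WT secretin, dnTGFB secretin, male WT 2 or male WT 3, and was 32 without male dnTGFB 3.

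In females no P450 gene and no other gene was called by edgeR in any of the 4 comparisons, so the background is 0% in each. P450 genes at an unadjusted p under 0.05 numbered 2 for dnTGFB against WT, 44 for WT secretin against WT, 2 for dnTGFB secretin against dnTGFB and 0 for dnTGFB secretin against WT. Of all genes tested, 19.4%, 26.5%, 18.2% and 0.503% had such a p. DESeq2 called 37 in the second and 0 in the others. Of all genes it called 13% in the second and 3.69%, 2.07% and 0% in the others. The medians were -1.07, -2.56, 0.67 and -0.54, against 0.10, 0.11, -0.02 and 0.04 over all genes.

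Cyp2e1 stood at 254, 348 and 219 CPM in female WT, at 87.3, 20.5 and 29.1 in WT secretin, at 46.5, 82.8 and 214 in dnTGFB and at 347, 131 and 80.9 in dnTGFB secretin. WT secretin lay below WT in every library (log2 -2.59 ± 0.76, edgeR adjusted p 0.14), and the low libraries of WT secretin and dnTGFB were the heart-muscle-rich ones. Cyp4b1 stood at 212, 250 and 195 CPM in WT, at 235, 50.8 and 65.7 in WT secretin, at 65.4, 52.0 and 186 in dnTGFB and at 233, 146 and 214 in dnTGFB secretin. Here too the 4 heart-muscle-rich libraries were the low ones, and the other 8 overlapped. Cyp2s1 was highest in dnTGFB 3 (39.9 CPM) and WT 1 (28.9) and lowest in WT secretin 2 (5.5).

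Cyp2u1, a fatty acid hydroxylase found in several tissues, went the other way. Its level over both sexes was 18.4 and 14.8 CPM in female WT secretin 2 and 3 and 11.7 and 14.1 in female dnTGFB 1 and 2. It was 5.88 in male dnTGFB 3 and between 1.11 and 3.77 elsewhere, so the 5 high libraries are the 5 highest in heart-muscle markers. Cyp4f39, an enzyme of ω-hydroxylated skin lipids, stood at 9.92 CPM in female WT 2 and 12.7 in female dnTGFB secretin 1. It was 1.10 and 0.620 in male dnTGFB 1 and 2 and at most 0.286 in the others. Female WT 2 and female dnTGFB secretin 1 also held 3497 and 3469 CPM of squamous epithelium markers, against at most 330 elsewhere. Cyp4f18 was highest in female dnTGFB 3 (42.3 CPM) and female WT 1 (26.8), the libraries with the most macrophage markers (2343 and 1788 CPM). Their neutrophil markers summed to 180 and 116 CPM, but the highest neutrophil sums, 199 and 183 CPM, were in male dnTGFB 1 and 2, where Cyp4f18 stood at 3.74 and 4.34 CPM. The part of these cells in the 3 genes was not tested.

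**Figure D4:**
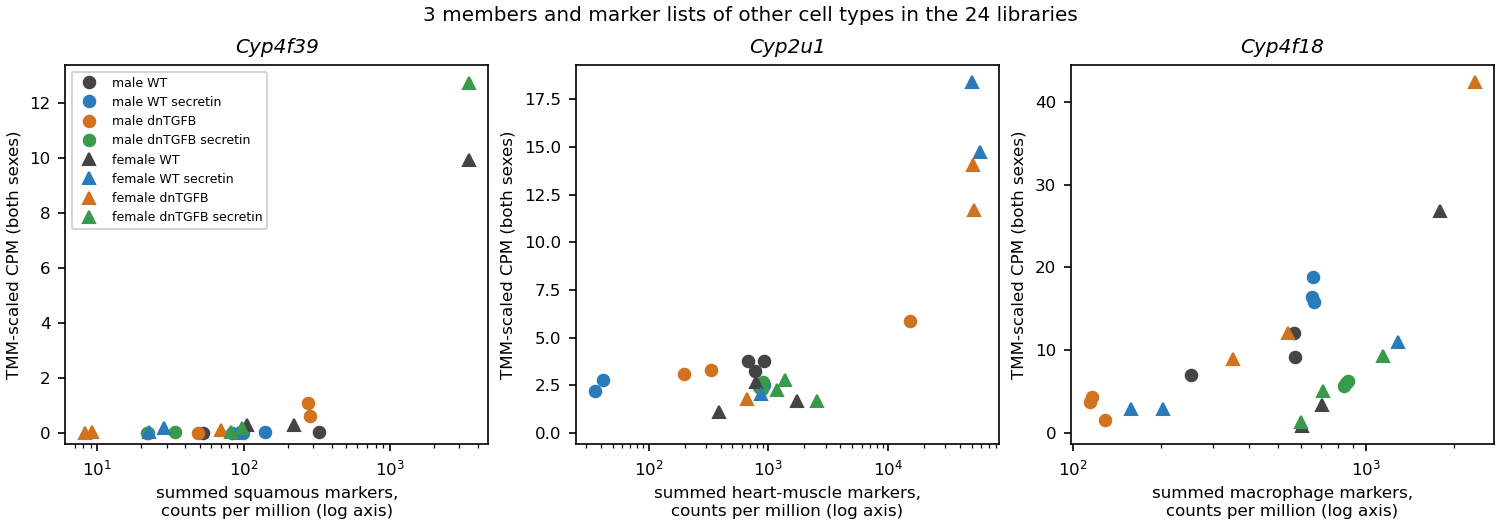
TMM-scaled CPM over both sexes of Cyp4f39, Cyp2u1 and Cyp4f18 (vertical) against the summed CPM of squamous, heart-muscle and macrophage markers (horizontal, log axis) in the 24 libraries; circles are male and triangles female. Cyp4f39 is high in the 2 libraries with 3497 and 3469 CPM of squamous markers, and Cyp2u1 in the 5 libraries richest in heart-muscle markers.

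Relative to Alb, 17 genes were higher in female dnTGFB than in WT and 16 in female WT secretin than in WT, where 68.9% and 84.2% of all genes were called, 68.5% and 84.2% higher. The P450 medians of 1.54 and 1.15 lay below the 3.18 and 4.31 of all genes. Cyp2u1 had the largest differences (5.88 ± 1.35, edgeR adjusted p 0.000396, and 7.39 ± 1.44, edgeR adjusted p 1.15e-05), followed by Cyp4f17 (4.26 ± 1.28 and 5.58 ± 1.36). Cyp2u1 was the only gene called, lower (-4.10), between dnTGFB secretin and dnTGFB, where 8.56% of all genes were, 8.53% lower. None was called between dnTGFB secretin and WT, with 0% of all genes called. There 3 P450 genes had an unadjusted p under 0.05, where 4.57% of all genes had one. Fits without the 4 heart-muscle-rich libraries left 1 library in female WT secretin and in dnTGFB, so they cannot decide whether these calls stay. The P450 medians in dnTGFB and in WT secretin against WT were 0.54 and 0.58 there, against 0.74 and 2.01 over all genes. Leaving out 1 library gave 1 to 22 calls in dnTGFB against WT, the highest without female dnTGFB 3 and the lowest without female WT 2, and 1 to 4 without any other. In WT secretin against WT it gave 9 without female WT 2 and 11 to 19 otherwise. In dnTGFB secretin against dnTGFB it gave 3 without female dnTGFB 3 and 0 otherwise.

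The female interaction of secretin with genotype was above 0 for 9 of 66 genes and below 0 for Cyp2u1 (-4.72 ± 1.21, edgeR adjusted p 0.0408), where 18% of all genes were called, 4.03% above 0 and 13.9% below. Cyp2d40 (5.49 ± 1.49), Cyp4a14 (5.30 ± 1.42) and Cyp4a10 (4.62 ± 1.25) were among the 9. Cyp4a14 stood at 15.1, 39.2 and 12.2 CPM in WT, at 2.02, 0.721 and 1.43 in WT secretin, at 1.76, 4.54 and 10.9 in dnTGFB and at 34.2, 5.70 and 2.43 in dnTGFB secretin. A fit without the heart-muscle-rich libraries leaves 1 library in female WT secretin and in dnTGFB and cannot decide whether these calls stay. No gene was called when any 1 library other than female WT secretin 1 (37 calls) or female dnTGFB 3 (38 calls) was left out.

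Between the sexes, genes known as female-biased in mouse liver were compared relative to Alb and in CPM. Cyp2c69 stood at 3.42, 3.55 and 3.46 per 1000 Alb counts in female WT, at 3.12, 2.16 and 2.79 in female WT secretin, at 2.18, 0.755 and 3.18 in female dnTGFB and at 3.49, 2.42 and 3.06 in female dnTGFB secretin. Every male library held at most 0.501, so the sexes did not overlap in any group. Cyp3a44, described here after its values were seen, stood between 0.146 and 1.80 per 1000 Alb counts in females and at no more than 0.0705 in males. Cyp2b9, a constitutive female-biased enzyme, stood at 23.8, 33.6 and 19.8 CPM in female WT and at 1.72, 0 and 0.232 in male WT, with both sexes scaled together here and below. In dnTGFB it overlapped, at 1.31, 0.734 and 12.7 CPM in females and 5.28, 7.53 and 0 in males (male against female log2 -0.05, edgeR adjusted p 0.982). Without the libraries that stand apart, which leaves the heart-muscle-rich female dnTGFB 1 and 2, it was higher in males there (2.67, edgeR adjusted p 8.55e-05). Its relative Cyp2b10, a target of the constitutive androstane receptor, stood at 4.44, 5.46 and 2.86 CPM in female WT and at most 0.574 in male WT. Relative to Alb, Cyp2b10 overlapped between the sexes in WT. Male WT 2 held 14 counts of it with 36817 Alb counts, and female WT 3 held 30 with 108525. Cyp3a41a stood at 11.4, 20.3 and 11.7 CPM in female WT and at most 0.0773 in male WT.

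Cyp2a4 and Cyp2a5, with nearly the same promoter letters, both had higher CPM in female than in male WT, by different amounts. Cyp2a4 stood at 34.9, 52.7 and 30.3 CPM in female WT and 1.54, 0.738 and 0.425 in male WT. Cyp2a5 stood at 49.4, 53.9 and 27.2 CPM in female WT and 21.2, 13.6 and 14 in male WT. In CPM, Cyp2a4 was thus far apart between the sexes in WT, while Cyp2a5 was higher in each female library by less. Relative to Alb, Cyp2a5 was higher in male WT 2 and 3 than in every female WT library. It held 331 and 362 counts in those male libraries, with 36817 and 38760 Alb counts. The female WT libraries held 534, 326 and 285, with 119773, 98378 and 108525 Alb counts. Their coding sequences are 94.8% identical, so reads may be split wrongly between them. Relative to Alb, the sexes overlapped for Cyp2a4 in dnTGFB only, where male dnTGFB 3 held 3.32 per 1000 Alb counts and the 3 female libraries 0.956, 0.820 and 2.85.

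Relative to Alb, the male-biased Cyp2d9 separated the sexes in WT and in dnTGFB secretin and overlapped in the other groups. It stood at 3.45, 21 and 19.9 per 1000 Alb counts in male WT and 0.668, 1.04 and 0.958 in female WT. In dnTGFB it stood at 3.32, 1.79 and 25.1 in males and 6.26, 24.7 and 1.21 in females. In dnTGFB secretin it stood at 3.72, 3.75 and 3.85 in males and 1.18, 2.35 and 1.31 in females, and in WT secretin at 5.6, 6.13 and 6.59 in males and 1.33, 9.14 and 7.69 in females. The heart-muscle-rich female libraries, which carry Ddx3y, were the high female ones at 6.26 to 24.7. Cyp4a12a showed the same order, with 3.93 and 5.55 in female dnTGFB 1 and 2 and 2.03 and 1.55 in female WT secretin 2 and 3, against at most 1.30 in the other female libraries. That order was read relative to Alb, and the heart-muscle-rich female libraries held 218 to 766 CPM of Alb. In CPM the female group means of Cyp2d9 and of Cyp4a12a were lowest in WT secretin and highest in dnTGFB.

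**Figure D5:**
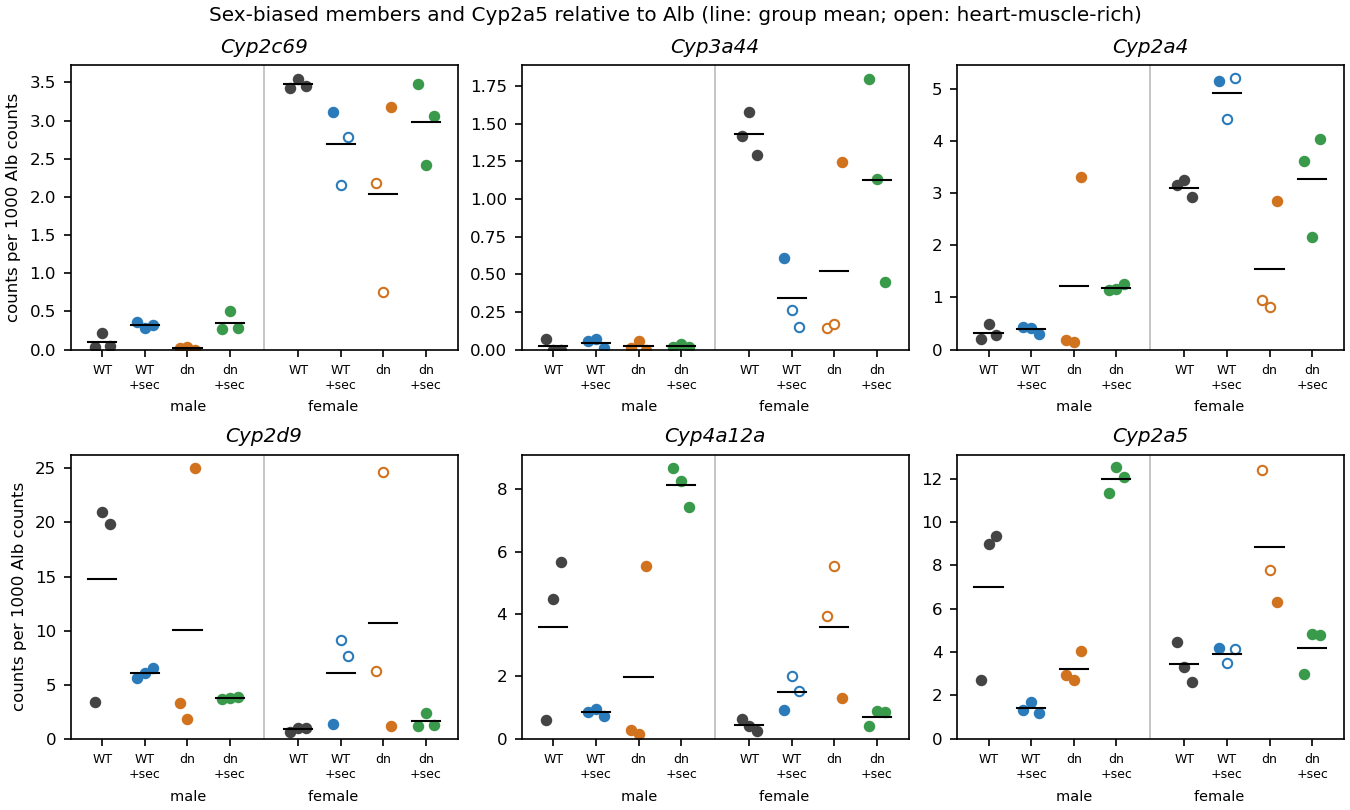
Counts per 1000 Alb counts of 6 P450 genes in each library, males left and females right, with the group mean as a line and heart-muscle-rich female libraries as open circles. Cyp2c69 separates the sexes in every group, Cyp2a4 does so in the groups other than dnTGFB, and the open circles of Cyp2d9 and Cyp4a12a lie above most other female libraries.

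By edgeR on the 24 libraries, 1 of 66 genes was called between male and female WT, Cyp2c69, lower in males (log2 -7.59 ± 1.33, adjusted p 0.0336), where 0.129% of all genes were, 0.094% higher and 0.0346% lower. The call was lost in each fit that left out 1 library. It held without the libraries that stand apart (-7.50, adjusted p 1.76e-07 by edgeR), where 34 P450 genes and 20.9% of all genes were called. In WT secretin 20 genes were higher in males and Cyp2u1 lower (-2.23 ± 0.65), where 12.8% of all genes were called, 1.49% higher and 11.3% lower. Cyp2d9 (3.78 ± 0.58), Cyp2c67 (3.42 ± 0.69) and Cyp3a11 (3.37 ± 0.56) led the 20. The heart-muscle-rich libraries include 2 of the 3 female WT secretin libraries. A fit without them keeps 1 library there and cannot decide whether these calls stay. Leaving out any 1 library other than female WT secretin 1 (38 calls) left 0 or 1.

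In dnTGFB 7 genes were higher in males and 3 lower, where 20.9% of all genes were called, 8.74% higher and 12.2% lower. Cyp3a25 (3.28 ± 0.84), Cyp3a11 (1.97 ± 0.53) and Cyp2f2 (2.08 ± 0.71) were among the higher. The lower ones were Cyp2c69 (-4.78 ± 1.36), Cyp2s1 (-1.43 ± 0.48) and Cyp2b13, which had a count of 0 in all 3 male libraries and 0.407, 0.187 and 3.9 CPM in females. Leaving out 1 library gave 1 to 4 calls, except 20 without female dnTGFB 3 and 17 without male dnTGFB 3. In dnTGFB secretin no P450 gene was called by edgeR, where 0.00989% of all genes were (0.00495% each way). An unadjusted p under 0.05 was found for 24, where 12.8% of all genes had one. DESeq2 called 14, where it called 3.72% of all genes.

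The effects themselves were also compared between the sexes. The effect of the transgene differed for 1 of 66 genes, Cyp4f39 (male minus female log2 10.19 ± 2.74, where 6.86% of all genes were called, 4.44% above 0 and 2.42% below). A fit without the heart-muscle-rich libraries keeps 1 female dnTGFB library, so it cannot decide whether that call stays. That fit also leaves out male WT 1 and male dnTGFB 3. The Cyp4f39 call was lost with a replicate block (edgeR adjusted p 0.141) and without female WT 2 alone (log2 6.64, edgeR adjusted p 0.173). It was also lost in the fits without male WT 1, 2 or 3, male dnTGFB 1 or female dnTGFB 1 or 2, and the count ran from 0 to 19, highest without female dnTGFB 3. Without the libraries that stand apart 43 genes were called, where 48.9% of all genes were, and Cyp4f39 was not tested. The effect of secretin in WT differed for none by edgeR, where 0% of all genes were called. An unadjusted p under 0.05 was found for 40 P450 genes, where 22.4% of all genes had one. DESeq2 called 29, where it called 9.18% of all genes. The effect of secretin in dnTGFB differed upward for Cyp2s1 (2.59 ± 0.66) and downward for Cyp4f39 (-11.61 ± 2.85), Cyp2f2 (-3.26 ± 0.98), Cyp2c50 (-3.12 ± 0.94) and Cyp2c23 (-2.92 ± 0.88), where 7.75% of all genes were called, 2.43% above 0 and 5.32% below. Cyp4f39 is at or near 0 counts in most libraries, so its fitted differences depend on the prior count. Without the heart-muscle-rich libraries 1 female dnTGFB library is left, so that fit cannot decide whether the 5 last calls stay. Leaving out 1 library at a time gave 0 to 24 calls, the highest without female dnTGFB 3 and 14 without female dnTGFB secretin 3.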

How the data were processed

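The authors deposited 1 table of whole-number read counts per gene for each of the 24 libraries. The libraries were made from 500 ng of total RNA by poly(A) selection, per the labels' protocols. Aligner, counting tool, strand setting and build: not given in the sources used here. Overlapping antisense genes may therefore share reads. The build was read from the coordinates: 44737 of 48970 identifiers found in GENCODE M21 have the same chromosome, start and end, which is GRCm38. Symbols and biotypes came from that annotation, and the other identifiers held no more than 0.0675% of the counts in any library.

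Counts were tested with edgeR 4.0.16 (R 4.3.3): TMM scaling, the low-count filter by group (minimum count 10), robust quasi-likelihood F tests, and Benjamini-Hochberg adjustment over all genes tested (18777 in males, 19882 in females, 20222 over both sexes). A gene was called at an adjusted p under 0.05. Each sex was fitted on its 12 libraries with 1 mean per group, and both sexes together for differences between sexes. For values relative to Alb, the Alb count of a library took the place of its size. The SE was obtained from the log2 fold change and its F statistic (the size of the first over the root of the second). TMM-scaled CPM are given per library. DESeq2 1.42.0, library totals, no filter, a summed hepatocyte list in place of Alb, a replicate block, fits of only the groups compared and fits without single libraries were alternatives, and those without libraries that stand apart were chosen after seeing the data. Sequences were handled with Biopython 1.88.

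Named genes are 24 P450 genes and Alb, the 6 largest called changes each way per comparison (3 for interactions) with a mean of at least 1 CPM and no overlap of groups, the 10 highest per kilobase, and pairs at least 95% identical. Identity was planned on proteins and computed on coding bases, since no protein table was used here. Other genes were named after their values were seen, and some genes of the lists are not reported here. The P450 genes and the gene lists were chosen with earlier results of these data known.

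On simulated counts of 18132 genes for male dnTGFB against male WT, 100 of 100 genes changed 4-fold and 35 of 100 changed 2-fold were recovered, with 7 false calls. The simulation gave every gene the same spread and held no library whose composition stands apart. Its recovery therefore cannot be read as that of the real groups. The replicate numbers did not pair the libraries: in 0 of 12 pairs of groups did every same-numbered pair correlate above 0.1, with r from -0.90 to 0.91. Totals of 1429218 to 104003184 counts set the precision, and low genes are least certain in male dnTGFB 3.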

Additional observations from a re-analysis of the deposited data

Results flagged for a closer look

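The results below are effects that differed between groups by an interaction term in edgeR's quasi-likelihood test. No group was tested for single outlying libraries, since each has 3. Values are log2 differences.

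In males, the change with secretin in dnTGFB minus that in WT was 4.04 for Cyp4f40, 2.41 for Cyp2c65 and 1.47 for Cyp2s1. It was -3.23 for Cyp2d9, -3.14 for Cyp2c67 and -3.06 for Cyp2f2. On the CPM scale, Cyp2d9 and Cyp2c67 were higher with secretin in WT and lower with secretin in dnTGFB. Relative to Alb, neither was called with secretin in WT or in dnTGFB. Cyp2c65 and Cyp2s1 were called with secretin in dnTGFB only.

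In females, the same difference was 11.22 for Cyp4f39, 5.49 for Cyp2d40 and 5.30 for Cyp4a14, and -4.72 for Cyp2u1. A fit without the 4 heart-muscle-rich libraries cannot decide whether these calls stay, since it leaves a single library in female WT secretin and in dnTGFB. The high libraries of Cyp4f39 are those rich in squamous markers, and the high libraries of Cyp2u1 are those rich in heart-muscle markers. The part of those cells was not tested.

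The difference between dnTGFB and WT was larger in males than in females by 10.19 for Cyp4f39. This call was lost with a replicate block (edgeR adjusted p 0.141) and without female WT 2 (edgeR adjusted p 0.173). The change with secretin in dnTGFB, male minus female, was 2.59 for Cyp2s1, -11.61 for Cyp4f39, -3.26 for Cyp2f2 and -3.12 for Cyp2c50. With libraries of few or no counts in several groups, the fitted values of Cyp4f39 depend on the prior count.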

How the results depend on the processing

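Of 158 counts of called P450 genes under other settings, 80 lay within 1.5 times the value reported and 78 did not. Of 8636 single-gene values, 7321 kept their direction and side of the threshold, 724 lost the call, 570 gained it and 21 changed sign. In the lists that follow, D is dnTGFB against WT, S is WT secretin against WT, DS is dnTGFB secretin against dnTGFB and DSW is dnTGFB secretin against WT. A count in brackets is the value reported. Unless said otherwise, the cause was not tested.

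DESeq2 called in males 14 in D (6), 12 in S (6) and 14 in DSW (7), in females 37 in S (0) and 36 in the interaction (10). Of all genes it called 26.6%, 16.6%, 14.3%, 13% and 31.6% in these, in turn. Between the sexes it called 14 in WT (1), 22 in dnTGFB (10), 14 in dnTGFB secretin (0), and for the differences of effects 9 in D (1), 29 in S (0) and 21 in DS (5). The shares over all genes were 3.27%, 27%, 3.72%, 12.5%, 9.18% and 15%, in turn. Library totals gave 11 in male D, 0 in the female interaction, 0, 2 and 3 between the sexes in WT, WT secretin (21) and dnTGFB, and 0 for DS between the sexes. There 27.8%, 0%, 0.0346%, 0.094%, 11.2% and 0.00495% of all genes were called, in turn. Without the low-count filter there were 4 in male DSW, 7 in male DS relative to Alb (12), 10 in female D relative to Alb (17) and 5 in the female interaction. Between the sexes this gave 0 in WT, 12 in WT secretin, 4 in dnTGFB, 0 for D and 2 for DS. Fits of only the groups compared gave in males 0 in D, 15 in S, 7 in DS (28) and 17 in DSW. With the hepatocyte sum in place of Alb there were 7 in male D (4), 0 in male S (5) and 9 in female D. No share over all genes is given for fits without the filter, of only the groups compared or with the hepatocyte sum. Their counts therefore cannot be set against it.

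With a replicate block, although the numbers did not pair the libraries, there were in males 3 in S, 3 in DSW, 1 in D relative to Alb and 0 in S relative to Alb. Of all genes 3.72%, 2.88%, 1.8% and 2.03% were called there. In females the block gave 0 in the interaction, 7 in D and 0 in DS (1) relative to Alb, where 0%, 48.9% and 2.48% of all genes were. Between the sexes the block gave 0 in WT, WT secretin and dnTGFB and 0 for D and DS. The shares over all genes were 0.00495%, 0.00495%, 5.36%, 3.55% and 0%, in turn. In male DS the block gave 22, where 15.3% of all genes were called.

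Settings chosen after seeing the data moved the most. Without the libraries that stand apart, male counts were 41 in D, 36 in S, 45 in DS, 34 in DSW and 44 in the interaction (19), and relative to Alb 51, 51, 47 and 31 (0). The shares over all genes were 47.4%, 40.5%, 46.6%, 38.1% and 48.9%, and relative to Alb 89.2%, 91.2%, 92.7% and 46.3%. Between the sexes the counts were 34, 48, 41 and 14 in the 4 groups and 43 for D, 55 for S and 42 for DS. There 20.9%, 63.6%, 61.7% and 11.6% of all genes were called, and 48.9%, 51.3% and 50.1%. Without the 4 female libraries far from their group, female counts were 39 in D (0), 51 in S, 19 in DS (0) and 54 in the interaction, and relative to Alb 52, 39 (16), 27 and 15 (0). Of all genes 41.4%, 51.2%, 45.4% and 61.8% were called there, and relative to Alb 90%, 92.1%, 61.1% and 72.3%. In female WT secretin and female dnTGFB this keeps only the heart-muscle-rich libraries, which carry Ddx3y. Without the heart-muscle-rich libraries they were 0 in the interaction and 0 relative to Alb in D, S and DS, and between the sexes 21 in WT, 0 in WT secretin, 11 in dnTGFB secretin, 8 for D and 8 for S.

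Leaving out 1 library at a time gave, in males, 4 to 28 in D, 2 to 7 in S, 13 to 36 in DS, 3 to 4 in DSW and 10 to 32 in the interaction, and relative to Alb 0 to 26, 0 to 33, 0 to 29 and 0 to 1. In females it gave 0 to 0 in D, 0 to 38 in S, 0 to 0 in DS, 0 to 0 in DSW and 0 to 38 in the interaction, and relative to Alb 1 to 22, 9 to 19, 0 to 3 and 0 to 0. Between the sexes it gave 0 to 0 for untreated WT and 0 to 38 for WT secretin, 1 to 20 for untreated dnTGFB and 0 to 0 for dnTGFB secretin, and 0 to 19 for D, 0 to 38 for S and 0 to 24 for DS. Where this left 2 libraries in a group, the spread was pooled over the groups. The share of all genes called in these fits is not given, so the counts cannot be set against it.

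Values that changed sign did so, unless said, without the libraries that stand apart. These were Cyp2c70 in male DSW (1.17), Cyp2a5 in the male interaction (-0.58), Cyp2b9 (2.67) and Cyp2d22 (0.60) between the sexes in dnTGFB, Cyp2c70 in dnTGFB secretin (0.79), and Cyp4b1 for D between the sexes (0.84). Relative to Alb they were Cyp4a10 in male D (-2.87), Cyp2d22 in male DSW (-0.18) and, in male DS, Cyp1a2 (0.78), Cyp2c29 (0.80), Cyp2d9 (0.57), Cyp3a11 (0.44), Cyp4a10 (1.40) and Cyp4a14 (1.67). Leaving out 1 library at a time, Cyp4a10 in male D ran from -2.44 to 0.74 and Cyp4a14 in male DS from -0.95 to 1.65, the sign changing without male dnTGFB 3. Leaving out the heart-muscle-rich libraries turned Cyp2u1 between the sexes in WT secretin (0.32), in the female interaction (0.24) and in female DS relative to Alb (1.10), Cyp4a12b in female D relative to Alb (-1.57) and Cyp4b1 for S between the sexes (-1.02).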
